A study of Arabidopsis thaliana with 12 samples.

Results

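The UDP-glycosyltransferase (UGT) genes considered here are the 45 genes whose symbol in the probe annotation begins with UGT and a digit, leaving out UGT78D1 and UGT78D2. They were picked by symbol out of 13350 genes named on the array, with earlier results of these data known. Each was read from 1 probe set that the annotation assigns to that gene only. They fall into 11 numbered subfamilies, UGT71 to UGT88, of which UGT71 (9 genes), UGT76 (8), UGT73 (7), UGT84 (5), UGT85 (5), UGT72 (4) and UGT74 (3) had more than 1 member. UGT78D3, UGT80B1, UGT87A2 and UGT88A1 stood alone. A further 3 probe sets that match a UGT gene together with a second gene were kept apart.

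Transcript levels had been measured in roots on 12 Affymetrix ATH1 arrays, 3 biological replicates in each of 4 groups. The groups were plants of ozs3 (overly zinc sensitive 3), whose background is Col-0, at 4 °C, ozs3 plants at 23 °C, wild-type Col-0 plants at 4 °C and Col-0 plants at 23 °C. All plants were 4 weeks old and had been raised hydroponically at 23 °C in short days (8 h light, 16 h dark) before they were either moved to 4 °C or left at 23 °C for 24 h. The labels do not name the gene affected in ozs3 or the kind of allele, so it could not be used to check them.

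UGTs move a sugar, most often glucose, from a UDP-sugar onto small molecules. Their acceptors include hormones, monolignols, hydroxycinnamic and benzoic acids, flavonoids, sterols and foreign compounds, and the sugar usually makes the acceptor more soluble, less active or ready for storage in the vacuole. In Arabidopsis the family is large, and many of its genes lie in tandem clusters of close relatives. Several members are known for inactivating auxin, cytokinin, abscisic acid or salicylic acid, and others for protecting phenolic compounds during stress.

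Levels below are log2 intensities of a gene's own probe set and are not compared between genes, because probes differ in brightness. Differences are in log2 units with the standard error (SE) of limma, a linear model with variances shared across probe sets, and p-values are adjusted by Benjamini-Hochberg over all 22746 probe sets tested. A gene is said to rise, fall or be called only at an adjusted p under 0.05. Probe sets at or below 5 were treated as dim, where a change may be understated. Groups of 3 arrays often do not overlap. For cold in ozs3, 29.9% of all probe sets had every cold array higher and 28.5% every cold array lower. In Col-0 these shares were 24.6% and 27.5%. Every ozs3 array was higher than every Col-0 array for 12.6% at 23 °C and 15.5% at 4 °C, and lower for 13.4% and 15.3%. By group means, 28 of the 45 UGT genes were above 5 in all 4 groups, 4 crossed that limit (UGT71B8, UGT72B3, UGT84A1 and UGT85A3) and 13 stayed at or below it in every group. Those 13 were UGT71B5, UGT71B6, UGT73C1, UGT73C2, UGT73C7, UGT76E1, UGT76E11, UGT76E12, UGT78D3, UGT84A3, UGT84B1, UGT84B2 and UGT85A5.

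Arrays of a group correlated at 0.994 to 0.997 over all probe sets, and the first principal component, which separated the temperatures, held 73.2% of the variance. The named probe sets held 4 of 10 photosynthesis markers (RCA, PRK, SBPASE and PSAN), whose mean level lay between 4.87 and 5.09 in ozs3 at 4 °C, 5.38 and 5.50 in ozs3 at 23 °C, 4.88 and 5.22 in Col-0 at 4 °C, and 5.24 and 5.78 in Col-0 at 23 °C. PRK and SBPASE were dim in every group. They also held 4 of 10 root markers (EXPA7, EXPA18, XTH26 and PYK10), whose mean was 9.23 to 9.60, 9.83 to 10.25, 9.39 to 9.86 and 9.94 to 10.14 in the same order of groups. Both marker means were lower in the cold. Of these markers, PSAN, EXPA18 and XTH26 fell in the cold in both genotypes and RCA fell in Col-0, while PRK, SBPASE, EXPA7 and PYK10 were not called in either. The part of these markers in the UGT results was not tested. In whole roots, fewer cells of a type and less RNA per cell cannot be told apart.

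The cold comparison asked how these genes respond when roots are chilled. Many more UGT genes rose than fell, in both genotypes. In ozs3, 19 of the 45 rose and 4 fell after 24 h at 4 °C, so 23 were called (51.1%), beside 51.1% of all probe sets. By direction, 42.2% of the UGT genes rose in ozs3, beside 24.9% of all probe sets, and 8.89% fell, beside 26.2%. In Col-0, 16 rose and 4 fell, which made 20 called (44.4%), beside 43.9% of all probe sets, with 35.6% risen beside 20.4% and 8.89% fallen beside 23.5%. The share of UGT genes called was thus that of the array as a whole, while the calls leaned towards rises. Changes of at least 2-fold were called for 7 UGT genes in ozs3, beside 11.3% of all probe sets, and for 7 in Col-0, beside 8.76%.

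Differences between 4 °C and 23 °C over the 45 genes ran between -1.98 and 1.96 in ozs3, with a median of 0.17 beside 0.05 over all probe sets. In Col-0 they ran between -1.78 and 1.83, with a median of 0.09 beside -0.00. When every array was shifted to a common median, which raises the median of all probe sets in ozs3 by 0.13, to 0.18, 31 UGT genes were called there (27 up, 4 down), and the risen share of all calls was 66.1% in place of 48.8%. Brightness mattered for the counts. Of the 29 UGT genes with an overall mean above 5, 19 were called in ozs3 and 18 in Col-0, beside 62.6% and 58% of all such probe sets. Of the 16 at or below 5, 4 were called in ozs3 and 2 in Col-0, beside 21.9% and 8.14%.

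**Figure D1:**
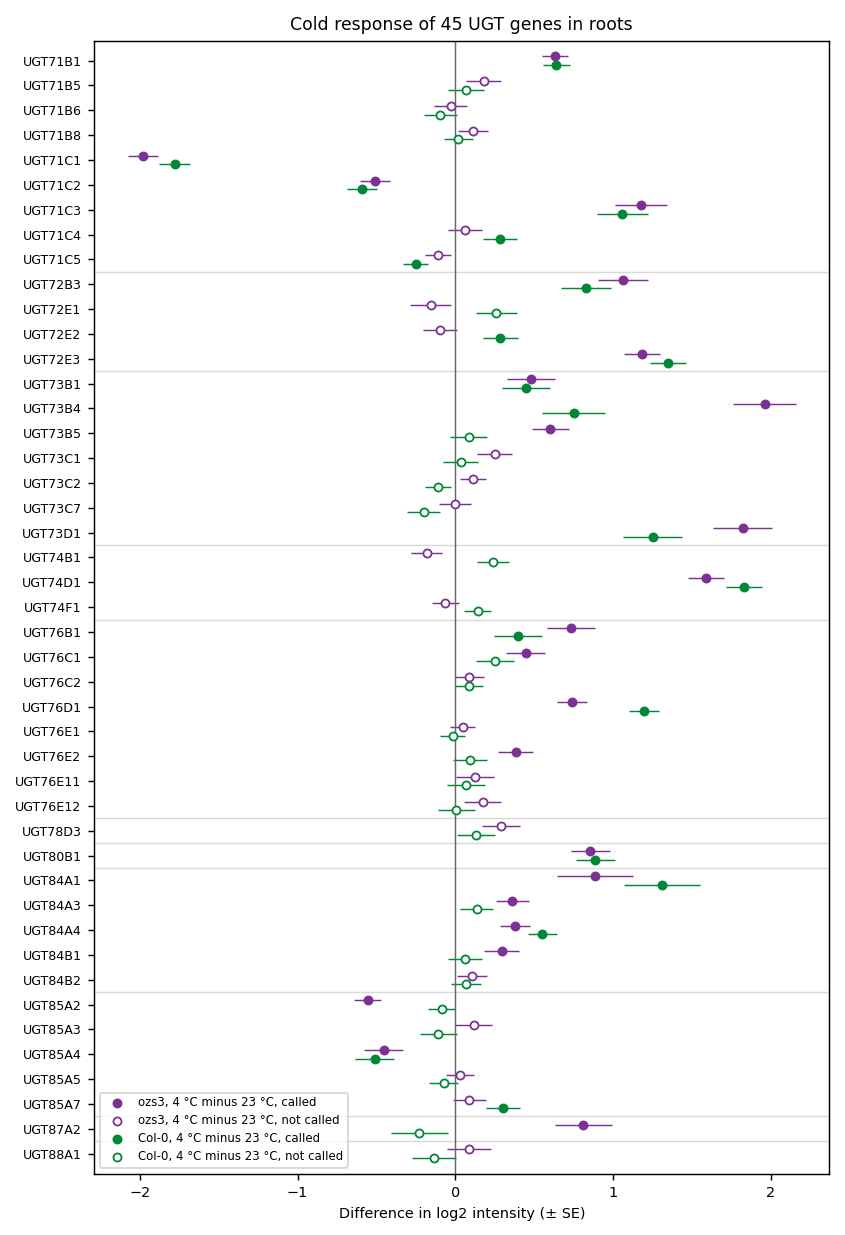
Difference in log2 intensity between 4 °C and 23 °C for each of the 45 UGT genes, grouped by subfamily, in ozs3 and in Col-0 (point and bar: difference ± SE from limma, 3 arrays per group; filled points: adjusted p under 0.05). The 4 genes furthest from 0 in ozs3 are UGT71C1, which fell by 1.98 and 1.78, and UGT73B4, UGT74D1 and UGT73D1, which rose by 1.96, 1.59 and 1.82 in ozs3 and by 0.75, 1.83 and 1.25 in Col-0.

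Among genes of hormone metabolism, UGT74D1 (AT2G31750), which glucosylates the auxin catabolite 2-oxindole-3-acetic acid, had the largest rise in Col-0. Its levels were 9.57, 9.84 and 9.62 in ozs3 at 4 °C, 8.26, 7.81 and 8.19 in ozs3 at 23 °C, 9.62, 9.41 and 9.52 in Col-0 at 4 °C, and 7.72, 7.64 and 7.70 in Col-0 at 23 °C. All cold arrays were above all control arrays. The gene rose by 1.59 ± 0.12 in ozs3 (3.01-fold, adjusted p = 1.03e-07) and by 1.83 ± 0.12 in Col-0 (3.56-fold, adjusted p = 4.96e-08). At 23 °C its 3 ozs3 arrays lay above the 3 Col-0 arrays, with a difference of 0.40 ± 0.12 that was not called (adjusted p = 0.0577). It was called with the replicate number as a block (adjusted p = 0.0427), with an intensity trend in the variance (0.0476) and without replicate 2 of ozs3 at 23 °C (0.013).

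The other members of UGT74 behaved differently from UGT74D1. UGT74F1, which conjugates salicylic acid, was called in neither cold comparison, with differences of -0.06 in ozs3 and 0.14 in Col-0. UGT74B1 (AT1G24100), which adds the glucose of glucosinolates, had levels of 9.97, 10.07 and 10.36 in ozs3 at 4 °C, against 10.47, 10.61 and 10.63 in Col-0 at 4 °C. The groups did not overlap, and UGT74B1 was lower in ozs3 by 0.44 ± 0.10 in log2 units at 4 °C (log2 difference -0.44, 1.36-fold, adjusted p = 0.00952). At 23 °C it stood at 10.23, 10.39 and 10.33 in ozs3, against 10.32, 10.30 and 10.39 in Col-0, a difference of -0.02. In the cold its change was -0.18 in ozs3 (adjusted p = 0.144) and 0.24 in Col-0 (adjusted p = 0.071). The change in Col-0 was called with the replicate number as a block (adjusted p = 0.0346), with only the arrays compared in the fit (0.0477) and with a common median (0.0498). Without replicate 3 of ozs3 at 4 °C it was called in Col-0 (0.0308) and, as a fall, in ozs3 (-0.30, adjusted p = 0.018).

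UGT84B1, which glucosylates indole-3-acetic acid, was dim in every group. It rose by 0.29 ± 0.11 in ozs3 (adjusted p = 0.0373) and differed by 0.06 in Col-0 (adjusted p = 0.71). The ozs3 call ended without replicate 3 at 23 °C (0.16, adjusted p = 0.185) and without replicate 1 or 2 at 4 °C (adjusted p = 0.105 and 0.088), and also after repeated quantile normalization (0.18, adjusted p = 0.187), with array weights (adjusted p = 0.0957) and with only the arrays compared in the fit (adjusted p = 0.0717). Its dim neighbour UGT84B2 was not called in either genotype.

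The cytokinin N-glucosyltransferase genes UGT76C1 and UGT76C2 are neighbours. UGT76C1 had levels of 7.29, 7.15 and 7.37 in ozs3 at 4 °C and 6.86, 6.72 and 6.89 in ozs3 at 23 °C, which do not overlap, and it rose by 0.44 ± 0.12 (adjusted p = 0.0071). In Col-0 its difference was 0.25 ± 0.12 (adjusted p = 0.116), which was called after repeated quantile normalization (adjusted p = 0.043), with a common median (0.048), with array weights (0.0312) and without replicate 2 of Col-0 at 23 °C (0.04996). UGT76C2 differed by 0.09 in each genotype and was not called.

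Genes of abscisic acid conjugation sit in UGT71. UGT71C5 (AT1G07240), the main glucosyltransferase for abscisic acid described in Arabidopsis, had levels of 9.05, 8.98 and 9.21 in ozs3 at 4 °C, 9.16, 9.22 and 9.18 in ozs3 at 23 °C, 8.99, 9.06 and 8.94 in Col-0 at 4 °C, and 9.23, 9.19 and 9.32 in Col-0 at 23 °C. Temperature separated the Col-0 arrays but not the ozs3 arrays. UGT71C5 fell by 0.25 ± 0.08 in Col-0 (adjusted p = 0.0209), while the change of -0.11 in ozs3 was not called (adjusted p = 0.282), and the interaction was 0.14 ± 0.11 (adjusted p = 0.467). The Col-0 call ended without replicate 3 at 23 °C (adjusted p = 0.0831), without replicate 1 or 3 at 4 °C (adjusted p = 0.0528 and 0.0712) and with a common median (adjusted p = 0.0857). UGT71B6, which also acts on abscisic acid, was dim and not called.

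The largest fall of any UGT gene, in both genotypes, was also in UGT71. UGT71C1 (AT2G29750), which can glucosylate flavonoids in vitro, had levels of 9.40, 9.14 and 9.31 in ozs3 at 4 °C, 11.19, 11.29 and 11.32 in ozs3 at 23 °C, 9.40, 9.23 and 9.55 in Col-0 at 4 °C, and 11.18, 11.09 and 11.24 in Col-0 at 23 °C. It fell by 1.98 ± 0.10 in ozs3 (3.94-fold lower, adjusted p = 4.68e-09) and by 1.78 ± 0.10 in Col-0 (3.43-fold lower, adjusted p = 1.66e-08). The genotypes were alike to within 0.11 at each temperature, and neither genotype difference was called (0.09 ± 0.10 at 23 °C and -0.11 ± 0.10 at 4 °C).

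UGT71C2 (AT2G29740) lies next to UGT71C1 and fell with it. Its levels were 7.86, 7.68 and 7.70 in ozs3 at 4 °C, 8.31, 8.10 and 8.35 in ozs3 at 23 °C, 7.89, 7.84 and 7.86 in Col-0 at 4 °C, and 8.59, 8.32 and 8.45 in Col-0 at 23 °C. The falls were 0.51 ± 0.10 in ozs3 (adjusted p = 0.00048) and 0.59 ± 0.10 in Col-0 (adjusted p = 0.000163). No cold array reached a control array in either genotype.

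UGT71C3 (AT1G07260), which glucosylates methyl salicylate, went the other way. It had levels of 8.89, 9.04 and 8.94 in ozs3 at 4 °C, 7.88, 7.79 and 7.68 in ozs3 at 23 °C, 8.77, 9.08 and 8.76 in Col-0 at 4 °C, and 7.59, 8.30 and 7.55 in Col-0 at 23 °C. Replicate 2 of Col-0 at 23 °C stood above its group, and was still below every cold array. UGT71C3 rose by 1.17 ± 0.16 in ozs3 (2.26-fold, adjusted p = 3.62e-05) and by 1.06 ± 0.16 in Col-0 (2.08-fold, adjusted p = 0.000111).

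Of the other UGT71 genes, UGT71B1 rose in both genotypes without overlap, with levels of 6.03, 6.02 and 5.94 in ozs3 at 4 °C, 5.41, 5.36 and 5.32 in ozs3 at 23 °C, 5.92, 5.93 and 5.82 in Col-0 at 4 °C, and 5.38, 5.27 and 5.10 in Col-0 at 23 °C. Its rise was 0.63 ± 0.08 in ozs3 (adjusted p = 2.39e-05) and 0.64 ± 0.08 in Col-0 (adjusted p = 2.59e-05). UGT71C4 rose by 0.29 ± 0.11 in Col-0 (adjusted p = 0.0467), with a difference of 0.06 in ozs3 (adjusted p = 0.652). The Col-0 rise of UGT71C4 was not called when replicate 1 of Col-0 at 23 °C was left out (0.19, adjusted p = 0.212), nor without replicate 1 or 3 of Col-0 in the cold (adjusted p = 0.123 each), ozs3 replicate 1 at 23 °C (0.0576), ozs3 replicate 3 at 4 °C (0.056), or with only the arrays compared in the fit (0.0517). UGT71B5 and UGT71B8 were not called in any comparison. Over the 9 UGT71 genes, 2 rose and 2 fell in ozs3, and 3 rose and 3 fell in Col-0, with medians of 0.06 and 0.02 whose sign flips under 3 of 19 alternatives each. Of all probe sets, 24.9% rose and 26.2% fell in ozs3, and 20.4% and 23.5% in Col-0.

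UGT72 holds the monolignol glucosyltransferases, which conjugate the building blocks of lignin and their aldehydes. UGT72E3 (AT5G26310), active on sinapyl alcohol, had levels of 9.00, 8.97 and 9.22 in ozs3 at 4 °C, 7.80, 7.86 and 7.97 in ozs3 at 23 °C, 9.25, 8.92 and 9.40 in Col-0 at 4 °C, and 7.81, 7.90 and 7.82 in Col-0 at 23 °C. The temperatures did not overlap, and the rise was 1.18 ± 0.11 in ozs3 (2.27-fold, adjusted p = 1.32e-06) and 1.35 ± 0.11 in Col-0 (2.55-fold, adjusted p = 5.4e-07). UGT72B3 (AT1G01420) was dim at 23 °C and above the limit in the cold, with 5.60, 5.80 and 5.12 in ozs3 at 4 °C, 4.63, 4.44 and 4.27 in ozs3 at 23 °C, 5.42, 5.30 and 5.02 in Col-0 at 4 °C, and 4.46, 4.48 and 4.31 in Col-0 at 23 °C. It rose by 1.06 ± 0.16 in ozs3 (adjusted p = 6.28e-05) and by 0.83 ± 0.16 in Col-0 (adjusted p = 0.000604).

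UGT72E2 (AT5G66690), active on coniferyl and sinapyl alcohol, was called higher in ozs3 at 23 °C. Its levels were 10.89, 10.96 and 10.95 in ozs3 at 4 °C, 10.96, 11.08 and 11.06 in ozs3 at 23 °C, 10.56, 10.81 and 10.88 in Col-0 at 4 °C, and 10.28, 10.43 and 10.68 in Col-0 at 23 °C. Every ozs3 array was above every Col-0 array of the same temperature. The difference was 0.57 ± 0.11 at 23 °C (1.48-fold higher in ozs3, adjusted p = 0.0069) and 0.19 ± 0.11 at 4 °C (adjusted p = 0.294). The cold rise of 0.29 ± 0.11 in Col-0 (adjusted p = 0.0477) came from overlapping groups and ended under 11 of 19 alternatives, 10 of them single arrays left out (each array but replicate 3 of Col-0 at 23 °C and replicate 1 of Col-0 at 4 °C, adjusted p up to 0.212).

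UGT72E1, which acts on the monolignol aldehydes, had levels of 10.34, 10.43 and 10.41 in ozs3 at 23 °C, against 9.76, 10.21 and 9.85 in Col-0 at 23 °C. These did not overlap. The difference of 0.45 ± 0.13 was not called (adjusted p = 0.0549). It was called under 7 of 19 alternatives, among them array weights (adjusted p = 0.009) and the replicate number as a block (0.0389). Its cold differences were -0.15 in ozs3 and 0.26 in Col-0, neither called. That in Col-0 was called with array weights (adjusted p = 0.0432) and without replicate 2 of Col-0 at 23 °C (0.0207). All 4 UGT72 genes had positive genotype differences at 23 °C, of which only that of UGT72E2 was called. Over all probe sets, 47.4% of the differences at 23 °C were positive and 3.17% were called higher.

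Hydroxycinnamate glucose esters, precursors of sinapate esters and other phenolics, are made by enzymes of the UGT84A group. UGT84A1 (AT4G15480) had levels of 5.22, 5.26 and 5.12 in ozs3 at 4 °C, 4.30, 4.15 and 4.49 in ozs3 at 23 °C, 6.46, 5.17 and 5.34 in Col-0 at 4 °C, and 4.27, 4.29 and 4.48 in Col-0 at 23 °C. Replicate 1 of Col-0 at 4 °C was far above its group, whose SD of 0.70 was the highest of any UGT gene in any group. UGT84A1 rose by 0.89 ± 0.24 in ozs3 (adjusted p = 0.0072) and by 1.31 ± 0.24 in Col-0 (adjusted p = 0.000492), and without that array the Col-0 rise was 0.91.

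The 3 UGT84A genes lie side by side. UGT84A4 (AT4G15500) had 8.55, 8.30 and 8.55 in ozs3 at 4 °C, 8.16, 8.12 and 7.98 in ozs3 at 23 °C, 8.55, 8.61 and 8.53 in Col-0 at 4 °C, and 8.14, 7.97 and 7.93 in Col-0 at 23 °C. It rose without overlap, by 0.38 ± 0.09 in ozs3 (adjusted p = 0.00352) and by 0.55 ± 0.09 in Col-0 (adjusted p = 0.00022). UGT84A3, between them, was dim in every group and rose by 0.36 ± 0.11 in ozs3 (adjusted p = 0.0108), with 0.13 ± 0.11 in Col-0 (adjusted p = 0.351). Its ozs3 call ended without replicate 1 at 23 °C (adjusted p = 0.0513) and after repeated quantile normalization (adjusted p = 0.0855). At 4 °C the genotypes differed by 0.29 ± 0.11 in UGT84A3 (adjusted p = 0.0814). This was called with the replicate number as a block (adjusted p = 0.0266), with array weights (0.0352) and without replicate 3 of Col-0 at 4 °C (0.0155).

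UGT76 holds conjugating enzymes of defence compounds besides those of cytokinin. UGT76D1 (AT2G26480), which glucosylates dihydroxybenzoic acids made from salicylic acid, had levels of 9.15, 9.15 and 9.06 in ozs3 at 4 °C, 8.33, 8.24 and 8.57 in ozs3 at 23 °C, 9.02, 9.17 and 8.96 in Col-0 at 4 °C, and 7.92, 7.77 and 7.86 in Col-0 at 23 °C. The genotypes overlapped in the cold and were apart at 23 °C, where ozs3 was higher by 0.53 ± 0.10 (1.44-fold, adjusted p = 0.00515). UGT76D1 rose by 0.74 ± 0.10 in ozs3 (1.67-fold, adjusted p = 2.02e-05) and by 1.20 ± 0.10 in Col-0 (2.29-fold, adjusted p = 3.25e-07).

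UGT76B1, which conjugates isoleucic acid and salicylic acid, rose in both genotypes. Its levels were 10.67, 10.98 and 11.39 in ozs3 at 4 °C, 10.11, 10.29 and 10.44 in ozs3 at 23 °C, 10.87, 10.76 and 11.03 in Col-0 at 4 °C, and 10.50, 10.37 and 10.59 in Col-0 at 23 °C. The rise was 0.73 ± 0.15 in ozs3 (adjusted p = 0.00108) and 0.40 ± 0.15 in Col-0 (adjusted p = 0.0466). In Col-0 it was not called without replicate 1, 2 or 3 at 23 °C (adjusted p = 0.0897, 0.141 and 0.0537), replicate 1 or 3 at 4 °C (0.0883 and 0.156), or replicate 2 of ozs3 at 23 °C or 4 °C (0.0597 and 0.0577).

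UGT76E2 (AT5G59590) was the only UGT gene called higher in ozs3 at 4 °C. It had levels of 7.21, 6.92 and 7.10 in ozs3 at 4 °C, 6.76, 6.66 and 6.67 in ozs3 at 23 °C, 6.56, 6.54 and 6.30 in Col-0 at 4 °C, and 6.27, 6.28 and 6.57 in Col-0 at 23 °C. Its genotype difference was 0.61 ± 0.11 at 4 °C (1.53-fold, adjusted p = 0.00221) and 0.32 ± 0.11 at 23 °C (adjusted p = 0.102), and in both the ozs3 arrays lay above all Col-0 arrays. In the cold UGT76E2 rose by 0.38 ± 0.11 in ozs3 (adjusted p = 0.00931), beside 0.09 ± 0.11 in Col-0 (adjusted p = 0.553). UGT76E1, which acts on 12-hydroxyjasmonate, UGT76E11 and UGT76E12 were dim and were not called in any comparison. All 8 UGT76 genes had positive cold differences in ozs3, 4 of them called, and 7 of 8 in Col-0, 2 of them called. Over all probe sets, 55.4% were positive and 24.9% called higher in ozs3, and 49.4% and 20.4% in Col-0.

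UGT73 contains enzymes linked to detoxification and responses to oxidative stress and pathogens. UGT73D1 (AT3G53150) had levels of 7.69, 7.83 and 7.94 in ozs3 at 4 °C, 5.93, 5.67 and 6.40 in ozs3 at 23 °C, 7.31, 7.63 and 7.79 in Col-0 at 4 °C, and 6.12, 6.18 and 6.67 in Col-0 at 23 °C. It rose by 1.82 ± 0.19 in ozs3 (3.53-fold, adjusted p = 2.16e-06) and by 1.25 ± 0.19 in Col-0 (2.38-fold, adjusted p = 8.17e-05), without overlap. UGT73C7, its neighbour, which acts on phenolic acids, was dim and not called, with differences of -0.00 in ozs3 and -0.20 in Col-0.

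UGT73B4 (AT2G15490), one of the enzymes that glucosylate products of the pollutant trinitrotoluene, had the largest rise of any UGT gene in ozs3. Its levels were 7.35, 7.39 and 6.96 in ozs3 at 4 °C, 5.30, 5.24 and 5.27 in ozs3 at 23 °C, 6.73, 7.07 and 6.14 in Col-0 at 4 °C, and 5.83, 5.66 and 6.19 in Col-0 at 23 °C. The ozs3 groups were far apart, whereas a cold Col-0 array fell within the range of the control arrays. UGT73B4 rose by 1.96 ± 0.20 in ozs3 (3.89-fold, adjusted p = 1.94e-06) and by 0.75 ± 0.20 in Col-0 (1.68-fold, adjusted p = 0.00664).

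UGT73B5, which lies next to UGT73B4 and is needed for full resistance to a bacterial pathogen, had levels of 8.14, 8.05 and 8.22 in ozs3 at 4 °C, 7.50, 7.47 and 7.64 in ozs3 at 23 °C, 7.87, 7.89 and 7.96 in Col-0 at 4 °C, and 7.69, 7.63 and 8.14 in Col-0 at 23 °C. It rose by 0.60 ± 0.12 in ozs3 (adjusted p = 0.000672), with 0.08 ± 0.12 in Col-0 (adjusted p = 0.633). Its interaction of 0.52 ± 0.17 was not called (adjusted p = 0.0659) and was called under 4 of 18 alternatives. UGT73B1 rose in both, by 0.48 ± 0.15 in ozs3 (adjusted p = 0.0177) and 0.45 ± 0.15 in Col-0 (adjusted p = 0.0284). The ozs3 call of UGT73B1 ended without replicate 1 at 23 °C (adjusted p = 0.0871) or replicate 3 at 4 °C (0.0626), and the Col-0 call without replicate 1 or 2 at 23 °C (difference 0.26 without replicate 1, adjusted p = 0.148 and 0.0509) or replicate 3 at 4 °C (0.101). UGT73C1 and UGT73C2 were dim and not called.

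UGT85 was the subfamily with the most mixed calls beside UGT71. UGT85A4 (AT1G78270) had levels of 5.63, 5.75 and 5.91 in ozs3 at 4 °C, 6.19, 6.05 and 6.42 in ozs3 at 23 °C, 5.69, 5.87 and 6.04 in Col-0 at 4 °C, and 6.20, 6.47 and 6.46 in Col-0 at 23 °C. It fell by 0.45 ± 0.12 in ozs3 (adjusted p = 0.00689) and by 0.51 ± 0.12 in Col-0 (adjusted p = 0.00356), without overlap. UGT85A7 rose by 0.30 ± 0.11 in Col-0 (adjusted p = 0.0339), beside 0.09 in ozs3 (adjusted p = 0.51). The call of UGT85A7 ended without any single Col-0 array except replicate 3 at 4 °C (adjusted p = 0.0967, 0.0565 and 0.0649 at 23 °C for replicates 1, 2 and 3, and 0.125 and 0.0659 at 4 °C for replicates 1 and 2) and with an intensity trend in the variance (adjusted p = 0.0611). UGT85A3 and UGT85A5 were not called.

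UGT85A2 (AT1G22360) set ozs3 at 23 °C apart from the 3 other groups. Its levels were 7.60, 7.71 and 7.59 in ozs3 at 4 °C, 8.14, 8.28 and 8.15 in ozs3 at 23 °C, 7.51, 7.52 and 7.70 in Col-0 at 4 °C, and 7.73, 7.56 and 7.70 in Col-0 at 23 °C. At 23 °C it was higher in ozs3 by 0.53 ± 0.09 (1.44-fold, adjusted p = 0.00251). In the cold it fell by 0.55 ± 0.09 in ozs3 (1.47-fold lower, adjusted p = 9.3e-05) and differed by -0.09 ± 0.09 in Col-0 (adjusted p = 0.47).

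Among the subfamilies with 1 gene, UGT80B1 (AT1G43620), which makes steryl glucosides of membranes, rose alike in both genotypes. It had levels of 7.58, 7.33 and 7.26 in ozs3 at 4 °C, 6.68, 6.47 and 6.45 in ozs3 at 23 °C, 7.42, 7.37 and 7.27 in Col-0 at 4 °C, and 6.51, 6.69 and 6.20 in Col-0 at 23 °C. The rise was 0.86 ± 0.12 in ozs3 (1.81-fold, adjusted p = 5.21e-05) and 0.89 ± 0.12 in Col-0 (1.85-fold, adjusted p = 4.55e-05), and the interaction was -0.03 ± 0.18. UGT88A1 was not called in any comparison, with cold differences of 0.09 in ozs3 and -0.14 in Col-0. UGT78D3, the flavonol arabinosyltransferase, was dim and not called (0.29, adjusted p = 0.0576 in ozs3, and 0.13, adjusted p = 0.439 in Col-0).

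UGT87A2 (AT2G30140), known for a part in flowering time, was called in the cold in ozs3 and not in Col-0. Its levels were 7.20, 7.63 and 7.46 in ozs3 at 4 °C, 6.64, 6.59 and 6.62 in ozs3 at 23 °C, 6.95, 7.40 and 6.99 in Col-0 at 4 °C, and 7.65, 6.87 and 7.52 in Col-0 at 23 °C. The Col-0 arrays at 23 °C were widely spread, with replicate 2 well below the other two, and the Col-0 groups overlapped. UGT87A2 rose by 0.81 ± 0.18 in ozs3 (1.75-fold, adjusted p = 0.00174) and differed by -0.23 ± 0.18 in Col-0 (adjusted p = 0.35). Without replicate 2 of Col-0 at 23 °C the Col-0 difference was -0.47 and was called (adjusted p = 0.0204).

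**Figure D2:**
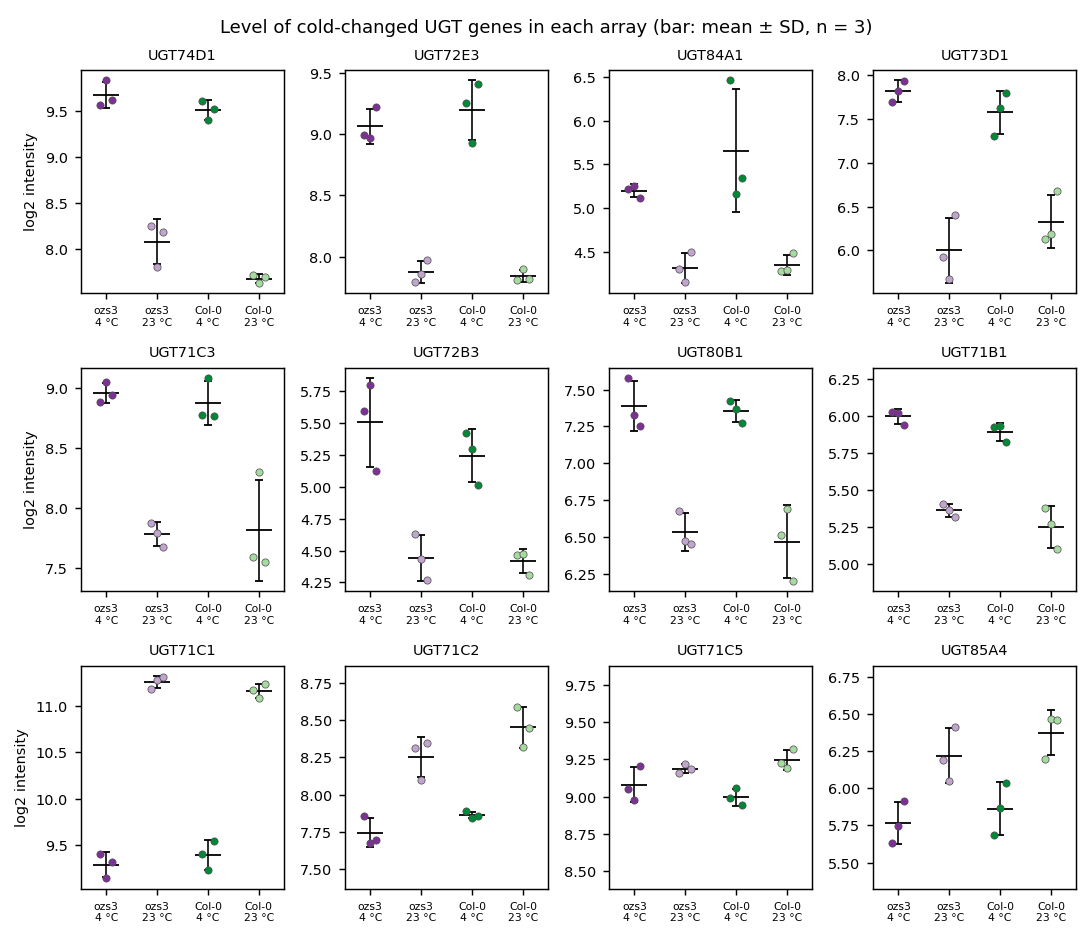
Log2 intensity (vertical axis) of 12 UGT genes in each of the 12 arrays, in the groups ozs3 4 °C, ozs3 23 °C, Col-0 4 °C and Col-0 23 °C (points: arrays; bar: mean ± SD, n = 3; each panel has its own scale). All 12 genes shown were called in at least 1 cold comparison. The upper 8 genes rose in the cold without overlap in both genotypes, with replicate 1 of UGT84A1 in Col-0 at 4 °C at 6.46. Every cold array was higher for 29.9% of all probe sets in ozs3 and 24.6% in Col-0. Of the lower 4, UGT71C1, UGT71C2 and UGT85A4 fell in both while UGT71C5 was called in Col-0 and not in ozs3.

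The cold responses of the genotypes were set side by side gene by gene, since their differences share no array. The calls are not separate, because their variances come from all 12 arrays. UGT71B1, UGT71C3, UGT72B3, UGT72E3, UGT73B1, UGT73B4, UGT73D1, UGT74D1, UGT76B1, UGT76D1, UGT80B1, UGT84A1 and UGT84A4 rose in both, which makes 13 genes. UGT71C1, UGT71C2 and UGT85A4 fell in both. The 16 shared calls were 69.6% of the ozs3 calls and 80.0% of the Col-0 calls, beside 64.8% and 75.4% for all probe sets, and none of the 45 was called in opposite directions with all arrays in the fit. Without replicate 2 of Col-0 at 23 °C, UGT87A2 was called lower in Col-0 (-0.47, adjusted p = 0.0204). A further 7 genes were called in ozs3 and not in Col-0 (UGT73B5, UGT76C1, UGT76E2, UGT84A3, UGT84B1 and UGT87A2 up, UGT85A2 down). UGT71C4, UGT72E2 and UGT85A7 (up) and UGT71C5 (down) were called in Col-0 and not in ozs3. Of these 11 genes, the interaction was called for UGT85A2 and UGT87A2. Across the 45 genes the differences of the genotypes correlated at r = 0.86, and at 0.84 across all probe sets, which are points from the same 12 arrays and not independent replicates.

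**Figure D3:**
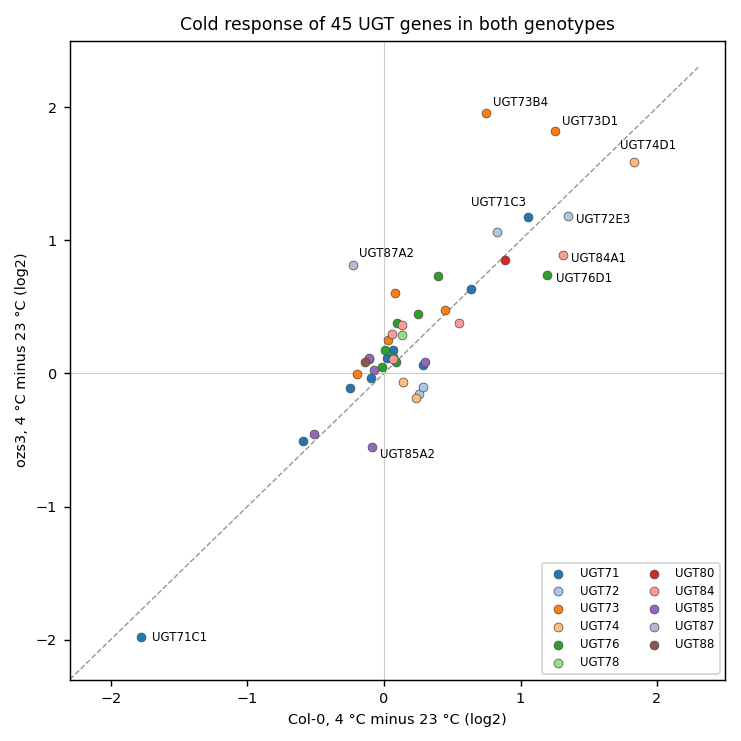
Cold difference in ozs3 against cold difference in Col-0 (log2 units, 4 °C minus 23 °C) for the 45 UGT genes, each point a gene, with the line of equal response. Most genes lie near the line. Of the genes with a called interaction, UGT73B4 (1.96 in ozs3, 0.75 in Col-0) and UGT87A2 (0.81, -0.23) lie above it and UGT76D1 (0.74, 1.20) and UGT85A2 (-0.55, -0.09) below. Genes without a called interaction lie off it too. UGT73D1 (1.82, 1.25) and UGT73B5 (0.60, 0.08) lie further off than UGT76D1 and UGT85A2. Their interactions of 0.57 and 0.52 were not called (limma, adjusted p = 0.194 and 0.0659).

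The genotype comparison asked how ozs3 roots differ from Col-0 roots at each temperature, and few UGT genes were called. At 23 °C, UGT72E2, UGT76D1 and UGT85A2 were higher in ozs3 and UGT87A2 was lower, 4 genes in all (8.89%), beside 6.34% of all probe sets. By direction, 3 were higher and 1 was lower, beside 3.17% of all probe sets each way. The share of all probe sets comes from 1442 calls, which were 2253 with the replicate number as a block, under which 6 UGT genes were called. UGT87A2 was lower in ozs3 at 23 °C (log2 difference -0.73 ± 0.18, 1.66-fold, adjusted p = 0.0283). Its call ended without replicate 1 or 3 of Col-0 at 23 °C (adjusted p = 0.103 and 0.0984), without any ozs3 array at 23 °C (adjusted p = 0.0796, 0.089 and 0.0601 for replicates 1, 2 and 3) and with only the arrays compared in the fit (0.0501). At 4 °C, UGT76E2 was higher and UGT74B1 lower in ozs3, 2 genes (4.44%), beside 14.6% of all probe sets, 6.42% higher and 8.2% lower. With a common median, higher calls made up 60.7% of all calls at 4 °C in place of 43.9%, and 2 UGT genes were higher and 1 lower.

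Whether the cold response itself differed between the genotypes was tested by the interaction, the cold difference in ozs3 minus that in Col-0. It was called for 4 UGT genes (8.89%), 2 positive and 2 negative, beside 10.1% of all probe sets, 4.3% positive and 5.82% negative. UGT73B4 had an interaction of 1.21 ± 0.28 (adjusted p = 0.0167), and this call held under all 18 alternatives run. UGT73B4 was lower in ozs3 by 0.62 at 23 °C (log2 difference -0.62 ± 0.20, adjusted p = 0.0837) and stood 0.59 ± 0.20 above Col-0 at 4 °C (adjusted p = 0.065), neither of which was called. The difference at 23 °C was called with array weights (adjusted p = 0.0287), with only the arrays compared (0.0284) and without replicate 2 or 3 of Col-0 at 4 °C (0.0466 and 0.0267), and that at 4 °C after repeated quantile normalization (0.0417), with a common median (0.0369) and without replicate 2 of Col-0 at 4 °C (0.0162). The interaction of UGT87A2 was 1.04 ± 0.25 (adjusted p = 0.0213), with adjusted p just past the threshold without replicate 3 of Col-0 at 23 °C (0.0501) or replicate 1 or 3 of Col-0 at 4 °C (0.0534 and 0.0512).

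The negative interactions belonged to genes that were higher in ozs3 at 23 °C, a measure that shares those arrays. UGT85A2 had an interaction of -0.47 ± 0.12 (adjusted p = 0.0274). That call ended with repeated quantile normalization (0.0548), a common median (0.0746), and without replicate 2 of Col-0 at 23 °C (0.0595), replicate 3 of Col-0 at 4 °C (0.0655), replicate 2 of ozs3 at 23 °C (0.0748) or replicate 3 of ozs3 at 4 °C (0.0631). UGT76D1 had an interaction of -0.46 ± 0.14 (adjusted p = 0.0484), which was not called under 13 of 18 alternatives, among them a common median (0.0921), array weights (0.0602) and 11 of 12 single arrays left out (each but replicate 2 of ozs3 at 23 °C, adjusted p between 0.0542 and 0.106). With a common median the UGT calls were 3, all positive, and positive calls made up 64.0% of all calls in place of 42.5%. Only 1 UGT gene was called without replicate 3 of Col-0 at 4 °C, and 2 without replicate 1 of Col-0 at 4 °C or replicate 3 of Col-0 at 23 °C.

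**Figure D4:**
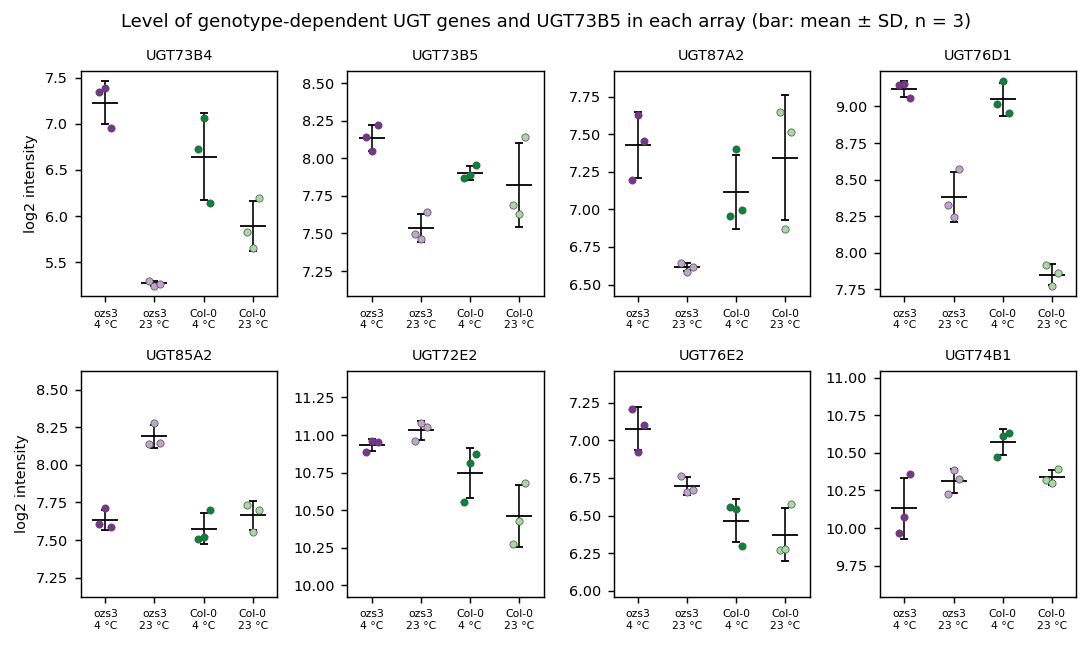
Log2 intensity (vertical axis) in each of the 12 arrays for the 7 UGT genes called in a genotype comparison or in the interaction, and for UGT73B5 (points: arrays; bar: mean ± SD, n = 3; each panel has its own scale). UGT73B4 and UGT87A2 are lowest in ozs3 at 23 °C, UGT85A2 is highest there, and UGT76E2 is highest in ozs3 at 4 °C.

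Subfamilies were compared by their members' medians, as a description without a test, since members share arrays and are few. All 7 UGT73 genes were lower in ozs3 than in Col-0 at 23 °C by their point values (median -0.23, beside -0.01 over all probe sets). None was called by limma (adjusted p of 0.0837 or more, and 3 at an unadjusted p under 0.05). All 7 had positive interactions (median 0.22, beside 0.03), with UGT73B4 called. The interaction uses the 23 °C arrays too, so a negative difference there shifts it upwards, and the signs are not separate results. Over all probe sets, 47.4% of the differences at 23 °C and 54.7% of the interactions were positive. UGT73C1, UGT73C2 and UGT73C7 were dim in every group. In the cold 4 of the 7 rose in ozs3 (median 0.48), beside 24.9% of all probe sets. In Col-0, 3 of the 7 rose (median 0.08), beside 20.4%. With the 3 dim genes left out the medians were 1.21 in ozs3 and 0.60 in Col-0. The signs of these UGT73 medians held under each alternative run. Between UGT73B4 and UGT73B5, close relatives, signal from the other gene's transcript was not tested.

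All 5 UGT84 genes had positive cold differences in ozs3 (median 0.36, 4 called) and in Col-0 (median 0.13, 2 called). Over all probe sets, 55.4% were positive and 24.9% called higher in ozs3, and 49.4% and 20.4% in Col-0. With the dim probe sets left out, UGT84A4 alone remains, at 0.38 in ozs3 and 0.55 in Col-0. UGT76 had medians of 0.28 in ozs3, with 4 of 8 called higher beside 24.9% of all probe sets, and 0.09 in Col-0, with 2 of 8 called higher beside 20.4%. Its medians per array overlapped between temperatures in Col-0, and with dim probe sets left out its median differences were 0.44 in ozs3 and 0.25 in Col-0. UGT72 had a median of 0.48 in ozs3, with 2 of 4 called higher beside 24.9% of all probe sets. In Col-0 its median was 0.56, with 3 of 4 called higher beside 20.4%. The ozs3 value turns to -0.10 when UGT72B3 is left out with the other dim probe sets, which gives 0.29 in Col-0. UGT74 and UGT85 had medians near 0 in ozs3 (-0.06 and 0.03), with UGT74 at 0.24 and UGT85 at -0.09 in Col-0, and the ozs3 sign of UGT74 flips with repeated quantile normalization and with a common median, as does that of UGT85 under 3 alternatives.

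**Figure D5:**
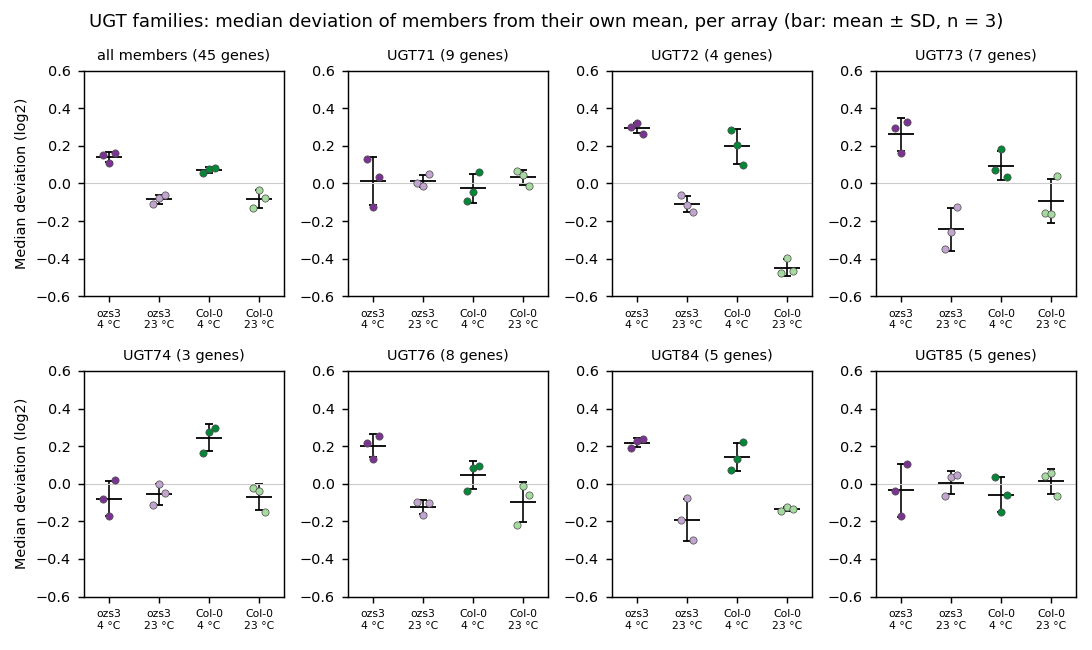
Median over a subfamily's genes of each gene's deviation from its own mean over all arrays (log2 units), per array, for all 45 UGT genes and for the 7 subfamilies with more than 1 gene (points: arrays; bar: mean ± SD, n = 3). For all members the cold arrays lie at 0.11 to 0.16 in ozs3 and 0.05 to 0.08 in Col-0, above the 23 °C arrays of both genotypes, whereas the temperatures overlap for UGT71 and UGT85 in both genotypes, for UGT74 in ozs3, and for UGT73 and UGT76 in Col-0.

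Position along the chromosomes was not used to choose the genes. By the gene order of TAIR10.1, 29 of the 45 lay in 12 runs in which neighbouring UGT genes had at most 2 protein-coding genes between them, giving 17 neighbouring pairs. In ozs3, both genes of 4 pairs were called in the same direction (UGT73B5 with UGT73B4, UGT71C2 with UGT71C1, UGT84A1 with UGT84A3, and UGT84A3 with UGT84A4), 8 pairs had 1 gene called and 5 had none. In Col-0, 2 pairs were called in the same direction (UGT71C4 with UGT71C3, and UGT71C2 with UGT71C1), 1 pair in opposite directions (UGT71C5 down and UGT71C4 up), 6 pairs had 1 gene called and 8 had none. Over all probe sets, 51.1% were called in ozs3 and 43.9% in Col-0, and neighbouring pairs of other genes were not counted. Pairs that share a gene are not separate, and UGT84A3, in 2 of the ozs3 pairs, was dim in every group. UGT73D1 and UGT73C7 differed most among neighbours, at 1.82 and -0.00 in ozs3 and 1.25 and -0.20 in Col-0.

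Genes that supply substrates to UGTs, or that share detoxification roles with them, were read from short lists, few of whose members had a named probe set. Of 21 genes for UDP-sugar supply 1 was named, USP, which makes UDP-sugars from sugar phosphates, and it rose by 0.32 ± 0.09 in ozs3 (adjusted p = 0.00963) and by 0.63 ± 0.09 in Col-0 (adjusted p = 6.91e-05). HCT, the 1 named gene of 16 for phenylpropanoid and monolignol synthesis, was not called in any comparison (cold differences -0.05 in ozs3 and -0.11 in Col-0). The lists of 14 glucosinolate and 7 cytokinin turnover genes had no named member.

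Of 16 glutathione transferases linked to foreign compounds and oxidative stress, 3 were named. GSTU25 rose by 3.83 ± 0.38 in ozs3 (adjusted p = 1.72e-06) and by 1.89 ± 0.38 in Col-0 (adjusted p = 0.000997), with an interaction of 1.94 ± 0.54 (adjusted p = 0.038). Its Col-0 arrays at 23 °C, which the interaction uses, were widely spread, at 5.79, 5.04 and 7.05. GSTU22 rose by 2.91 ± 0.32 in ozs3 (adjusted p = 4.47e-06) and by 1.47 ± 0.32 in Col-0 (adjusted p = 0.00182), and its interaction of 1.44 ± 0.46 was not called (adjusted p = 0.0632). Its Col-0 arrays at 23 °C stood at 7.32, 7.40 and 8.64. GSTU20 fell by 0.52 ± 0.15 in ozs3 (adjusted p = 0.0106) and differed by 0.35 in Col-0 (adjusted p = 0.0795), with an interaction of -0.87 ± 0.21 (adjusted p = 0.0222). At 4 °C, GSTU25 and GSTU22 were higher in ozs3 than in Col-0, by 2.02 and 1.13 (adjusted p = 0.0033 and 0.0324). GSTU20 was lower there (log2 difference -1.07, adjusted p = 0.00051).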

How the data were processed

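Each deposited file value is the summary of 1 probe set on 1 array. The authors ran RMA, a method that corrects background, normalizes across arrays and condenses the probes of a set, per the submitters' processing notes (version not given in the sources). The deposited numbers behave as log2 intensities, running from 2.91 to 15.0, with array medians of 7.00 to 7.20. No further normalization was applied. Arrays give no read depth, so the number of arrays limits the precision. Of 22810 probe sets, 64 controls were left out. The probe annotation gave a single gene for 13513, several for 503 and none for 8730, and loci and gene order came from a TAIR10.1 gene table (13436 probe sets matched, all 45 UGT genes among them).

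A group-means model over all 12 arrays was fitted in R 4.3.3 by limma 3.58.1 (lmFit and eBayes; degrees of freedom: 8 residual, 5.42 prior), with p-values adjusted by Benjamini-Hochberg within each of 5 contrasts over 22746 probe sets, called at an adjusted p under 0.05. The script was tested on simulated data. The UGT genes, lists, rules and alternatives were chosen with earlier results of these data known. By rule, every UGT gene is named, and full values go to the 8 largest called rises and 4 largest called falls in each cold comparison and to 5 per direction in the others; UGT71B1, UGT73B5, UGT76B1, UGT76C1 and UGT84A4 were added after their values were seen. Averaging all probe sets of a gene was not run, because each UGT gene has 1.

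Whether equal replicate numbers pair arrays was checked by taking each array's deviation from its group mean at every probe set and correlating arrays of equal number. Every pair was above 0.1 for cold in Col-0 (0.195, 0.249 and 0.274). So were the pairs for the genotypes at 23 °C (0.294, 0.326 and 0.473) and 4 °C (0.291, 0.198 and 0.353), so the pairing comes from the data there. For the cold response in ozs3 the values were 0.320, 0.081 and 0.310, and the replicate 2 pair missed that limit. The other comparisons link the same ozs3 arrays through Col-0, so the ozs3 numbers cannot be called unpaired. The main fit used no pairing. No labelled technical batch was found.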

Additional observations from a re-analysis of the deposited data

Results flagged for a closer look

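The interaction, which tests the difference between the cold responses of ozs3 and Col-0, was called for 4 UGT genes, and these are the results a reader may want to look at again. UGT73B4 had an interaction of 1.21 and UGT87A2 of 1.04. UGT76D1 had -0.46 and UGT85A2 -0.47. In all 4 genes the point values of the genotypes differed by more than 0.5 at 23 °C, in arrays that the interaction uses too, and the cause was not tested.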

How the results depend on the processing

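No called UGT difference changed sign under any alternative. Of the UGT calls, 20 of 23 held under every alternative for cold in ozs3, 14 of 20 for cold in Col-0, 3 of 4 for the genotypes at 23 °C, 2 of 2 at 4 °C and 1 of 4 for the interaction. In the same order, 9, 4, 5, 2 and 3 uncalled UGT genes were called under at least 1 alternative. For cold in ozs3 these were UGT71B5, UGT71B8, UGT73C1, UGT73C2, UGT74B1, UGT76C2, UGT76E12, UGT78D3 and UGT84B2, all but UGT74B1 with a common median. Leaving out single arrays gave 21 to 24 UGT calls for cold in ozs3, 15 to 19 in Col-0, 3 to 5 for the genotypes at 23 °C, 2 to 3 at 4 °C and 1 to 3 for the interaction. Over all probe sets it gave 10272 to 11716, 9035 to 10150, 767 to 1551, 2227 to 3467 and 1439 to 2279 calls in the same order. For the genotypes at 23 °C the call count over all probe sets fell to 783 and 767 without ozs3 replicate 1 or 2 at 23 °C and to 919 and 954 without Col-0 replicate 2 or 3 at 23 °C, and for the interaction to 1439 and 1457 without ozs3 replicate 1 or 2 at 23 °C. With array weights, 8 UGT genes and 2323 probe sets were called for the genotypes at 23 °C, in place of 4 and 1442. With the replicate block, 2253 probe sets were called there. The blocked calls that differ are given beside UGT74B1, UGT72E1, UGT74D1 and UGT84A3. Outside cold in ozs3 and the interaction the block changed no other UGT call. For cold in ozs3 the replicate block gave 24 UGT calls in place of 23 (UGT78D3 added, limma, adjusted p = 0.03355). For the interaction it gave 7 in place of 4, adding UGT73B5 (adjusted p = 0.0193), UGT73D1 (0.03435) and UGT74B1 (0.0347). For cold in ozs3 every array correlated best with the array of its own number, although the replicate 2 pair missed the limit of 0.1. This pairing is read from the data only. The cause of these changes was not tested. The 13 UGT genes dim in every group limit what could be seen of changes in them.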

Other observations

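The 3 probe sets that match a UGT gene together with another gene were read on their own, and their signal cannot be assigned to either gene. The probe set shared by UGT73B2 and UGT73B3 had levels of 10.02, 9.72 and 10.28 in ozs3 at 4 °C, 7.85, 7.47 and 8.07 in ozs3 at 23 °C, 9.16, 9.79 and 9.08 in Col-0 at 4 °C, and 8.38, 8.64 and 9.03 in Col-0 at 23 °C. It rose by 2.21 ± 0.22 in ozs3 (limma, adjusted p = 1.46e-06) and by 0.66 ± 0.22 in Col-0 (adjusted p = 0.0234), with an interaction of 1.55 ± 0.31 (adjusted p = 0.00713). At 23 °C it was lower in ozs3 (log2 difference -0.89 ± 0.22, adjusted p = 0.0276), and at 4 °C the difference of 0.67 ± 0.22 was not called (adjusted p = 0.056). UGT73B4 and UGT73B5 had point values of the same signs in these comparisons. UGT73B1 rose in both genotypes as well. Its genotype differences were -0.05 at 23 °C and -0.02 at 4 °C, and its interaction was 0.03, none of them called.

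The probe set shared by UGT89B1 and AT1G73885 rose by 0.60 ± 0.11 in Col-0 (limma, adjusted p = 0.000498), with 0.23 ± 0.11 in ozs3 that was not called (adjusted p = 0.0998). The probe set shared by UGT71D1 and AT2G29710 was not called in any comparison, with cold differences of 0.03 in ozs3 and -0.02 in Col-0.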
